A study of Mus musculus with 5 samples.

Results

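The subject is 787 very wide domains of acetylated lysine 27 of histone H3 (H3K27ac), among 37845 regions carrying the mark in at least 1 of 2 mouse cultures. A line of either H3K27ac peak list was chosen by its width, where this was 10 kb or more, and overlapping wide lines of the lists were merged, with narrower lines inside a domain counted as cover. The rule took 463 of 31266 lines (1.48%) in neural stem cells (NSC) and 643 of 31597 lines (2.04%) in brain tumour stem cells (BTSC). The merged domains spanned 13.1 Mb, or 14.4% of all base pairs under H3K27ac, and the other 37058 regions spanned 78.3 Mb with a median width of 1616 bp.

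The study asked where the orphan nuclear receptor TLX sits, and which regions are acetylated, in cultured normal and tumour stem cells of the mouse brain. Both H3K27ac libraries came from cells that were not transduced. Both TLX libraries came from cells with a retroviral TLX carrying a 3xTY1 tag, kept under drug selection and precipitated through the tag, so TLX and H3K27ac were never measured in the same cells. The growth protocol names primary mouse neural stem cells for every sample, and strain, age, pooling of animals and the tumour model behind the BTSC could not be taken from the sources at hand. An additional control without antibody, from cells with the empty vector MSCV-neo, was not analysed here. Each group had 1 library, so no value below has a replicate check and no p-value is given. Intervals are exact 95% intervals for counting error only, and depth is unknown.

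H3K27ac is laid down by the acetyltransferases p300 and CBP at active enhancers and promoters. Most acetylated stretches are short, and unusually wide ones often cover clusters of enhancers near genes that set a cell's identity, among them transcription factors, signalling receptors and microRNAs. TLX, encoded by Nr2e1, is kept on in neural stem cells, binds DNA alone at the hexamer AAGTCA and is known mainly as a repressor that recruits histone deacetylases and the demethylase LSD1.

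Of the 10 widest domains, those at Mir9-3 and at Mirlet7b with Mirlet7c-2 lay over microRNA genes and overlapped no coding gene. In all, 30 of 1228 annotated microRNA genes lay in 24 of the domains. This was a smaller share than that of coding genes, of which 724 of 21900 (3.31%) lay under a domain, so microRNA genes were not set apart by number. All 30 had a mature sequence in the RefSeq table for GRCm38.p6, the assembly of mm10. The sequences below are from the miR-9, let-7, miR-125b and miR-15/16 genes among them. Capitals mark the seed (bases 2 to 8, which pairs with target messages). miR-9 drives neural stem cells towards differentiation and is known to target the message of TLX itself. The let-7 family, miR-125b and the miR-15/16 family are regulators of cell growth and developmental timing.
miR-9-5p: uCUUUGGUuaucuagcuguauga
miR-9-3p: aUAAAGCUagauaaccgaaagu
let-7b-5p: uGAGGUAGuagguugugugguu
let-7c-5p: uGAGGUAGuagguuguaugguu
miR-125b-5p: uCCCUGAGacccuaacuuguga
miR-15b-5p: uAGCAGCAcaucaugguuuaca
miR-16-5p: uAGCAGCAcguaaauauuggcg

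All 3 genes that encode miR-9 lay under a domain that was wide in both cultures. The domain over Mir9-1 and Rhbg (chr3:88191294-88244457) was covered over 52772 bp in NSC and 53065 bp in BTSC. That over Mir9-3 (chr7:79493791-79553095) was covered over 45291 bp in NSC and 59305 bp in BTSC, and that over Mir9-2 (chr13:83712864-83751038) over 35143 and 38175 bp. By count these domains were among the richest in TLX: they held 9, 8 and 6 TLX summits in NSC, and 3, 2 and 2 in BTSC. Per kb of domain the NSC values were 0.169, 0.135 and 0.157, beside 0.324 in the narrower Six3 domain. The NSC list of TLX peaks is the longer one, with 7458 peaks against 1436. All domains together held 891 NSC and 254 BTSC summits. A lower BTSC count at a single locus, here or below, is thus not by itself a loss of TLX. RefSeq also annotates miR-9b genes on the opposite strand at the same places.

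Mirlet7b and Mirlet7c-2, whose products share the seed GAGGUAG, lay together in 1 domain (chr15:85652311-85710125) covered over 49851 bp in NSC and 57815 bp in BTSC, with 5 and 1 TLX summits. The domains over the other microRNA genes printed above were wide in BTSC only and held no TLX summit in either list. That of Mir125b-1 (chr9:41579442-41595665) was covered over 8792 bp in NSC and 16224 bp in BTSC, and lay 310358 bp from the nearest end of a coding gene. That of Mir15b and Mir16-2, which share the seed AGCAGCA and lie inside Smc4, was covered over 5240 of its 10327 bp in NSC and over all of it in BTSC.

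The widths and cover of the domains are the values that chose them, so they are given as a description. Of the 787 domains, 301 were wide in both lists, 149 in NSC only and 337 in BTSC only. Median widths were 17277 bp for domains wide in both, 11903 bp for those wide in NSC only and 12486 bp for those wide in BTSC only. H3K27ac peaks covered 10.3 Mb of the domains in NSC and 12.1 Mb in BTSC, a ratio of 1.18, beside 58.3 and 62.0 Mb and a ratio of 1.06 over the lines outside the domains. Among domains wide in both, 193 were covered over more base pairs in BTSC and 108 over more in NSC. Wide lines were also of higher enrichment as the authors' caller scored them: the median fold was 12.4 against 4.46 for other lines in NSC, and 11.7 against 4.40 in BTSC.

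The limit of 10 kb fell within a continuum. The narrowest lines kept in NSC lay at Clip3 (10002 bp), Nfix (10008 bp) and Zfp827 (10015 bp), and the widest left out lay near Smpdl3a (9985 bp) and in Slc6a11 (9976 bp) and Amotl1 (9972 bp). In BTSC the narrowest kept lay at Id3 (10006 bp), near Zcchc13 (10009 bp) and at Klf12 (10016 bp), and the widest left out at Ptprs (9997 bp), near Itm2c (9991 bp) and at Smoc1 (9987 bp).

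A domain wide in 1 culture was seldom bare in the other. Every one of the 337 domains wide in BTSC only held a narrower NSC line, so 0 were bare, which allows a share of up to 1.09%. NSC lines covered 54.2% of their base pairs, as a median of 2 lines a domain, the widest of them 5923 bp at the median. In 101 of the 337 domains the widest NSC line reached 7500 bp, just short of the limit, and in 26 the NSC cover was under 25%. The base pairs without NSC lines lay partly between NSC lines (994 kb) and partly beyond the outermost ones (1182 kb). Among domains wide in NSC only, BTSC lines covered 59.8% of the base pairs, 55 of 149 had a widest BTSC line of at least 7500 bp, 9 were covered under 25%, and 3 had no BTSC line.

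**Figure D1:**
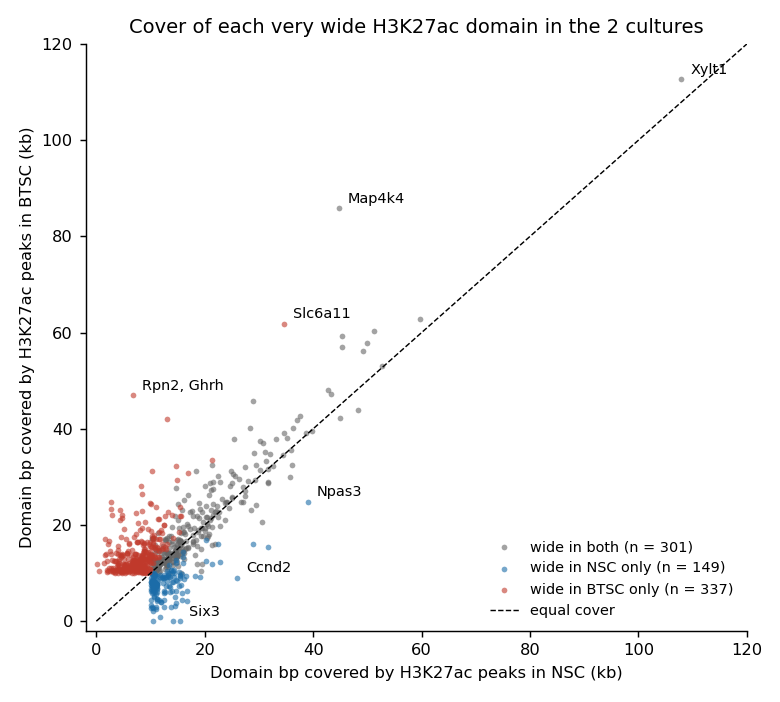
Each point is 1 of the 787 domains, with the kilobases covered by H3K27ac peaks in NSC on the x axis and in BTSC on the y axis, coloured by class, and the dashed line marks equal cover. Of the 301 domains wide in both, 193 lie above the line and 108 below it; Map4k4, which is one of these, and Slc6a11 and Rpn2 with Ghrh lie far above the line, and Npas3, Ccnd2 and Six3 below it.

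The balance of the classes differed between chromosomes. On chromosome 1, 48 domains were wide in BTSC only and 3 in NSC only, and cover was 1.72 times as high in BTSC as in NSC. On chromosome 6 the numbers were 14 and 18, with a cover ratio of 0.980. Chromosome 4 had 32 and 7, chromosome 7 had 36 and 7, and the X chromosome 10 and 0. On all the other chromosomes together 197 domains were wide in BTSC only and 114 in NSC only. TLX peaks were uneven in a like manner: chromosome 1 held 20.7% of the BTSC list but 6.18% of the NSC list, and chromosome 6 held 5.22% and 10.3%. Values without chromosomes 1 and 6 are given below beside the shares of domains with TLX in BTSC, the TLX densities and the recurrence of TLX sites.

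**Figure D2:**
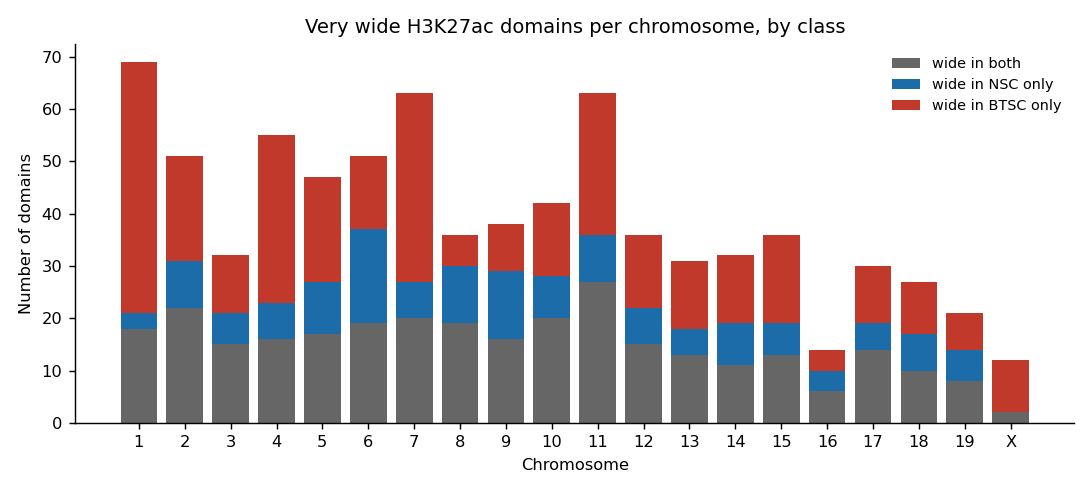
The height of each bar is the number of domains on that chromosome, split by class. Chromosome 1 has 48 domains wide in BTSC only and 3 in NSC only, whereas chromosome 6 has 14 and 18.

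Beyond the microRNA loci, the 10 widest domains lay mostly inside genes. The widest, in Xylt1, the gene of a xylosyltransferase that starts glycosaminoglycan chains, spanned 115507 bp (chr7:117415209-117530715). It was covered over 107909 bp in NSC by 4 lines that were each 10 kb or wider, and over 112626 bp in BTSC by a single line. In Map4k4, a kinase of the stress pathway (chr1:39918003-40003816), cover was 44704 bp in 6 lines in NSC and 85814 bp in 1 line in BTSC. In Slc6a11, which encodes a GABA transporter of astrocytes (chr6:114142985-114204797), NSC had 34644 bp in 8 lines, none of them wide, and BTSC had 61813 bp in 1 line. A domain that formed 1 line in BTSC was thus a series of shorter lines in NSC, and the highest fold among these lines was 17.8 in the NSC list and 9.12 in the BTSC list.

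Domains over Slc25a26 and Lrig1 (chr6:94599207-94662078), the latter a brake on receptors of the EGF family, and in Ptn, which encodes the growth factor pleiotrophin (chr6:36752903-36813294), were of similar extent in the cultures. Cover at Lrig1 was 59694 bp in NSC and 62872 bp in BTSC, and at Ptn 51139 and 60392 bp. Domains in Myt1, a zinc finger factor of neural progenitors (45235 and 57079 bp), and in Maml2, a Notch coactivator (49255 and 56138 bp), complete the list.

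**Figure D3:**
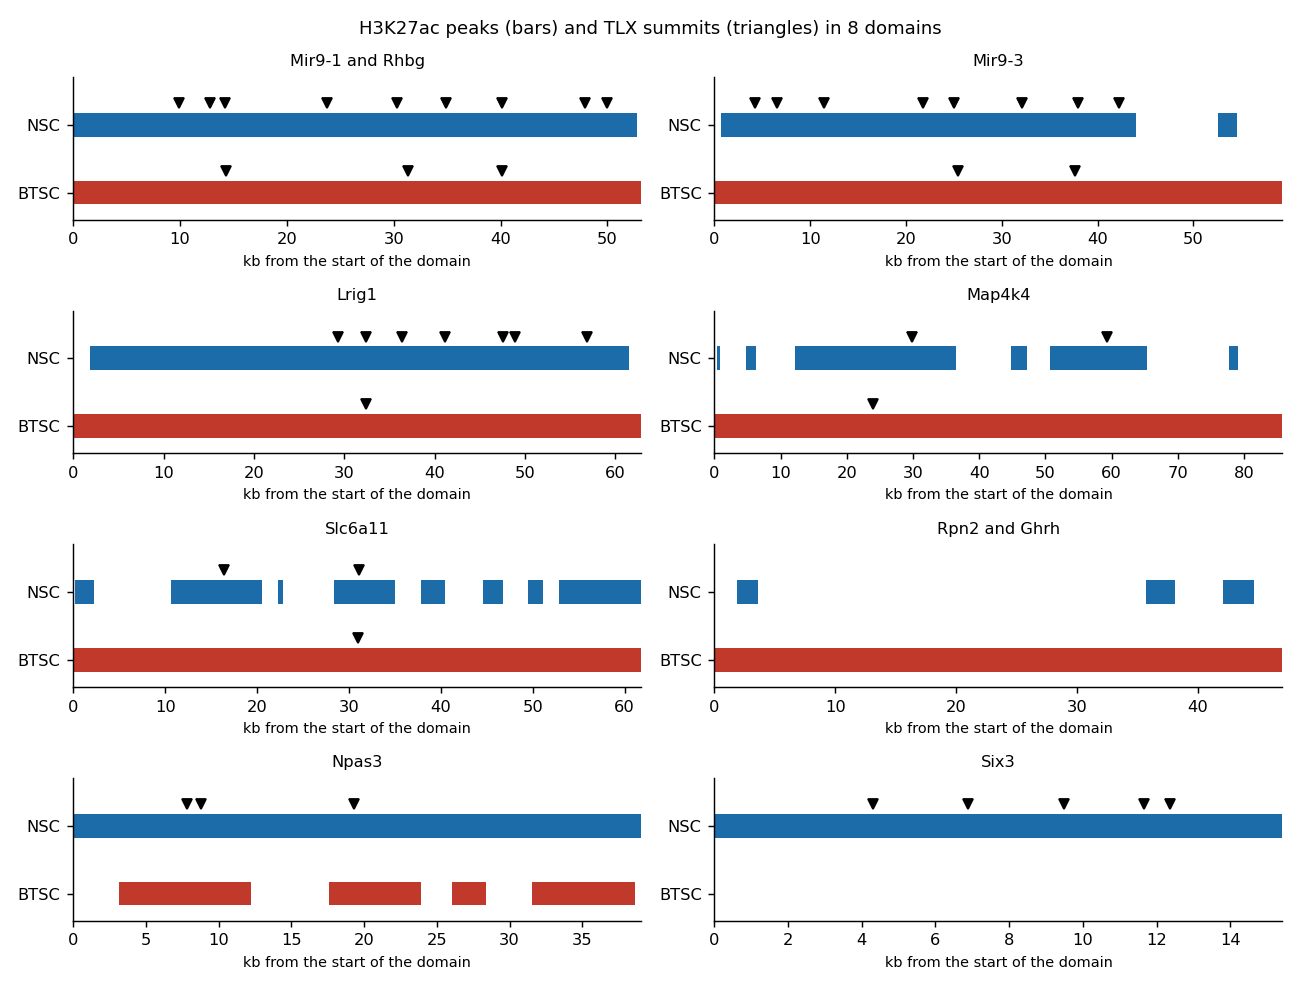
Bars are H3K27ac peaks and triangles are TLX summits in NSC (upper row of each panel) and BTSC (lower row), against the distance in kilobases from the start of each domain. The Mir9-1 domain is covered alike in the cultures and has 9 and 3 TLX summits, the Slc6a11 domain is 8 pieces in NSC and 1 in BTSC, and the Six3 domain has 5 NSC summits and no BTSC peak of either kind.

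The 5 domains wide in NSC only with the largest difference in cover lay at Ccnd2, Dscaml1, Six3, Rab3b and Npas3. Over Ccnd2, which encodes cyclin D2 (chr6:127129715-127155665), cover was 25951 bp in NSC and 9073 bp in BTSC, with 4 TLX summits in NSC and 0 in BTSC. Over Six3, a homeobox gene of the anterior brain (chr17:85614123-85629541), all 15419 bp were covered in NSC and 0 in BTSC, with 5 and 0 TLX summits. A domain in Rab3b, a GTPase of vesicle release, was likewise covered over 14194 bp in NSC and 0 in BTSC. In Dscaml1, a cell adhesion gene, the values were 31683 and 15514 bp, and in a domain of Npas3, a bHLH-PAS factor of neural progenitors, 39054 and 24865 bp.

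The domains wide in BTSC only with the largest difference in cover began with one over Rpn2 and Ghrh (chr2:157285304-157332330), with 6763 bp in NSC and 47027 bp in BTSC. Its highest fold was low for a wide domain, 3.23 in NSC and 6.28 in BTSC, and it held no TLX summit. Others were Slc6a11 above, a domain in Chd7 on chromosome 4 (2653 and 24812 bp) and the Coro2b domain (10207 and 31280 bp). Chd7 encodes a chromatin remodeller active in neural stem cells, and Coro2b an actin-binding coronin.

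Genes were counted as under a domain where their annotated span overlapped it. Of 21900 coding genes, 724 (3.31%) were under a domain: 319 (1.46%) under one wide in both, 141 (0.644%) under one wide in NSC only and 319 (1.46%) under one wide in BTSC only, with some genes in more than 1 class. An annotated start lay in a domain for 357 of the 17492 genes that have an entry in the RefSeq promoter table (2.04%). Counted by culture, 439 genes lay under a wide NSC line and 600 under a wide BTSC line, of which 315 were shared, 124 were under NSC lines only and 285 under BTSC lines only. Genes under domains were longer, with a median span of 35.7 kb against 17.1 kb for all coding genes.

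Among 21 gene lists of neural, glial and signalling genes with 338 entries (325 distinct genes), 67 distinct genes lay under a domain, beside 3.31% of all coding genes; the lists were drawn up with earlier results of these data known. In the list of 20 neural stem cell genes, whose median span was 7.03 kb, 9 did. Sox2, the pluripotency and neural progenitor factor (chr3:34646239-34675168), was covered over 27340 bp in NSC and 27036 bp in BTSC, with 6 and 1 TLX summits. Fabp7, a fatty acid binding protein of radial glia, had 14959 and 16071 bp with 2 and 0 summits. Slc1a3, a glial glutamate transporter, had 18969 and 24541 bp with 2 and 1. Nes, the intermediate filament gene nestin, lay with Bcan in a domain wide in NSC only (18200 and 9310 bp, 4 and 0 summits), and so did Msi1, an RNA-binding protein of stem cells (10199 and 8359 bp, 1 and 0). Msi2, its relative, had 1 domain wide in NSC only and another 2 wide in both.

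Egfr, the receptor for epidermal growth factor, held 2 of the stem cell list's domains that were wide in BTSC only. In one, cover was 4642 bp in NSC and 21391 bp in BTSC, and in the other, which lies just beyond it (chr11:16814418-16845299), 16944 and 30882 bp. TLX was sparse there, with 0 and 1 summits in NSC and 0 and 1 in BTSC. Of the 15 genes of the EGF receptor family and its feedback inhibitors, 4 lay under a domain; the other three were inhibitors, Lrig1, Spry2 and Spry4, and all of these had domains wide in both.

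Of 20 Notch pathway genes, 5 lay under a domain, each in at least 1 that was wide in both. The receptor gene Notch1 (chr2:26467239-26508971) was covered over 36972 bp in NSC and 41733 bp in BTSC and held 4 and 2 TLX summits. The ligand genes Dll1 (12597 and 14334 bp) and Dll3 (14098 and 13701 bp) held none, and Lfng, a glycosyltransferase that modifies Notch receptors, had 15510 and 16747 bp with 2 summits in either list. Of 21 Wnt pathway genes 4 lay under a domain: the ligand gene Wnt7b (24939 and 28666 bp) and the feedback inhibitor Axin2 (29371 and 32457 bp) under one wide in both, and the receptor gene Fzd9 (14960 and 29315 bp) and Apc (14027 and 22090 bp) under one wide in BTSC only. Of 12 Hedgehog genes only the receptor gene Ptch1 did (22368 and 30258 bp, 4 and 0 TLX summits). Of 19 BMP and TGF-beta genes 3 did: Bmp7 (10969 and 5613 bp) and Bmpr1b (11184 and 8478 bp), a ligand and a receptor, wide in NSC only, and the target gene Id3, wide in both (18280 and 13791 bp).

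Several transcription factors of glial fate were among the genes under domains. Of 14 nuclear factor I, Sox and POU genes, 9 lay under a domain, 7 of them under one wide in both. Nfia, which drives astrocyte formation, lay under 6 domains that summed to 50497 bp of cover in NSC and 82277 bp in BTSC. Of these domains 4 were wide in BTSC only. Nfia and Nfib lie on chromosome 4, where 32 domains were wide in BTSC only and 7 in NSC only. Cover in the domains of that chromosome was 1.39 times as high in BTSC as in NSC. Nfib had 21437 and 27452 bp in its wider domain, and the 3 domains of Nfix had 14642 and 27593 bp, 27008 and 27929 bp, and, in the one wide in NSC only, 10008 and 6195 bp. The Sox8 domain was alike in the cultures (16588 and 16673 bp), and so were those of Pou3f2 (14733 and 14839 bp) and Pou3f3 (21806 and 22725 bp). Sox4 (9431 and 12545 bp) and Pou3f4 (8347 and 10430 bp) were wide in BTSC only.

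Of 14 oligodendrocyte lineage genes, 8 lay under a domain. Olig1 (14077 bp in NSC and 11755 bp in BTSC) and Olig2 (16994 and 15217 bp), the neighbouring bHLH factors of the lineage, each held 3 TLX summits in NSC and 1 in BTSC. The domain over Sox10 (chr15:79140415-79178840) was covered over 34447 and 34452 bp and held no TLX summit in either list, the widest such domain among those wide in both. Nkx2-2, a homeobox gene of the lineage, had 11657 bp in NSC but 859 bp in BTSC, whereas Cnp, a myelin enzyme gene, had 6067 and 10756 bp. Of 14 astrocyte genes 6 lay under a domain, none of them under one wide in NSC only. Only 0.644% of all coding genes lay under a domain of that class, so this absence does not set the list apart. Besides Slc1a3 and Nfia the 6 genes were Aldoc (16804 and 20208 bp), Apoe (10052 and 13911 bp), S100b (9565 and 12680 bp) and Slc4a4, whose widest domain had 21418 and 32477 bp.

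Forebrain patterning genes were split, with 5 of 18 under a domain. Nr2f1, a nuclear receptor gene of cortical patterning, was wide in both (15974 and 19524 bp). Emx2 (11245 and 4706 bp, 4 and 0 TLX summits) and Six3 were wide in NSC only, and Otx1 (9835 and 15571 bp) in BTSC only. Among E protein and proneural genes 5 of 14 lay under a domain. The main domain of Tcf4 had 42725 bp in NSC and 48003 bp in BTSC with 4 and 0 TLX summits.

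A few cell cycle genes lay under domains. Of 18 proliferation genes 3 lay under a domain: the D cyclins Ccnd1 (15440 bp in NSC and 9325 bp in BTSC) and Ccnd2 wide in NSC only, and Mcm2, a replication helicase subunit, wide in BTSC only (8848 and 12875 bp). Of 15 cell cycle inhibitors and tumour suppressors 3 did: Cdkn1b, which encodes p27 (12764 and 16970 bp, 4 and 1 TLX summits), and Cdkn2c, which encodes p18 (11675 and 11890 bp), wide in both, and Nf1 (7087 and 13954 bp), wide in BTSC only. Of 16 receptor and ligand genes of glioma 3 lay under a domain, namely Ptn, its receptor gene Ptprz1, and Ntrk2. Cover was 21298 and 19477 bp in the wider domain of Ptprz1, and 7666 and 11175 bp at Ntrk2. Of 20 mesenchymal glioblastoma genes only Stat3 lay under a domain (3055 and 10120 bp).

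Few genes on lists for other cell types lay under a domain. None of 12 microglial, 12 endothelial and 16 other-tissue genes lay under a domain, and of 16 neuron genes only Map2 did (5996 and 11221 bp). Of 12 housekeeping genes only Gapdh did (7150 and 10371 bp). With 3.31% of all coding genes under a domain, lists of this size would hold 0 or 1 such gene at the background share, so the counts do not set these lists apart.

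Some genes held whole series of domains, and 86 genes lay under 2 or more. Npas3 had 9, of which 4 were wide in NSC only and 5 in both, summing to 163197 bp of cover in NSC and 115309 bp in BTSC, with 7 TLX summits in NSC and 0 in BTSC. Chd7, which like Nfia lies on chromosome 4, had 5, all of them wide in BTSC only, with 27402 and 79514 bp. Gpm6b, the gene of a neural membrane glycoprotein on the X chromosome, had 5, of which 4 were wide in BTSC only (48565 and 104268 bp). At Zmiz1, a transcriptional coregulator gene, cover was larger in NSC, with 3 of its 4 domains wide in NSC only (53046 and 40423 bp). Fyn and Nav2 had 5 domains each, Maml2 and Nfia 6 each, and Tcf4 4.

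The TLX lists were not used to choose the domains. At least 1 TLX summit lay in 533 of the 787 domains in NSC (67.7%, 64.3 to 71.0%) and in 208 in BTSC (26.4%, 23.4 to 29.7%). Without chromosomes 1 and 6 the BTSC share was 22.8%. In the other H3K27ac regions, which are narrower, the shares were 15.7% and 2.9%. Both lists had a summit in 194 domains, NSC alone in 339 and BTSC alone in 14, and 240 (30.5%) had none. Domains with 3 or more summits numbered 70 in NSC and 6 in BTSC. In all, 891 NSC summits (11.9% of that list) and 254 BTSC summits (17.7%) lay in the domains.

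Per kilobase the domains were not uniformly richer in TLX than other acetylated regions. In NSC they held 0.0678 summits per kb (0.0634 to 0.0724) and the other regions 0.0770 (0.0751 to 0.0790), a ratio of 0.880 (0.819 to 0.944). In BTSC they held 0.0193 (0.0170 to 0.0218) and the other regions 0.0138 (0.0130 to 0.0147), a ratio of 1.40 (1.21 to 1.60). The lists differ in length, 7458 peaks in NSC and 1436 in BTSC. With the NSC list cut by q to the length of the BTSC list, the NSC ratio was 1.29 (1.11 to 1.49), so its direction changed and its interval overlapped that of BTSC. Without chromosomes 1 and 6 the ratios on the full lists were 0.889 in NSC and 1.40 in BTSC. Region widths include base pairs that were acetylated in the other culture alone. Over the base pairs acetylated in the same culture, the domains held 0.0866 summits per kb (0.0810 to 0.0925) in NSC against 0.101 (0.0981 to 0.103) elsewhere, a ratio of 0.860 (0.801 to 0.923). In BTSC they held 0.0210 (0.0185 to 0.0238) against 0.0173 (0.0163 to 0.0184), a ratio of 1.21 (1.05 to 1.39). Domains share loci and are not independent of each other, which these intervals do not reflect.

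Across all region widths, TLX density in NSC was highest at 2 to 3 kb, with 0.0899 summits per kb (0.0853 to 0.0948). It was 0.0678 at 7.5 to 10 kb, 0.0675 at 10 to 15 kb and 0.0591 (0.0499 to 0.0696) at 30 kb or more. In BTSC it was 0.0158 (0.0139 to 0.0179) at 2 to 3 kb, 0.0162 at 7.5 to 10 kb, 0.0177 at 10 to 15 kb and 0.0177 (0.0128 to 0.0238) at 30 kb or more, with overlapping intervals. No step was seen at 10 kb in either list.

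**Figure D4:**
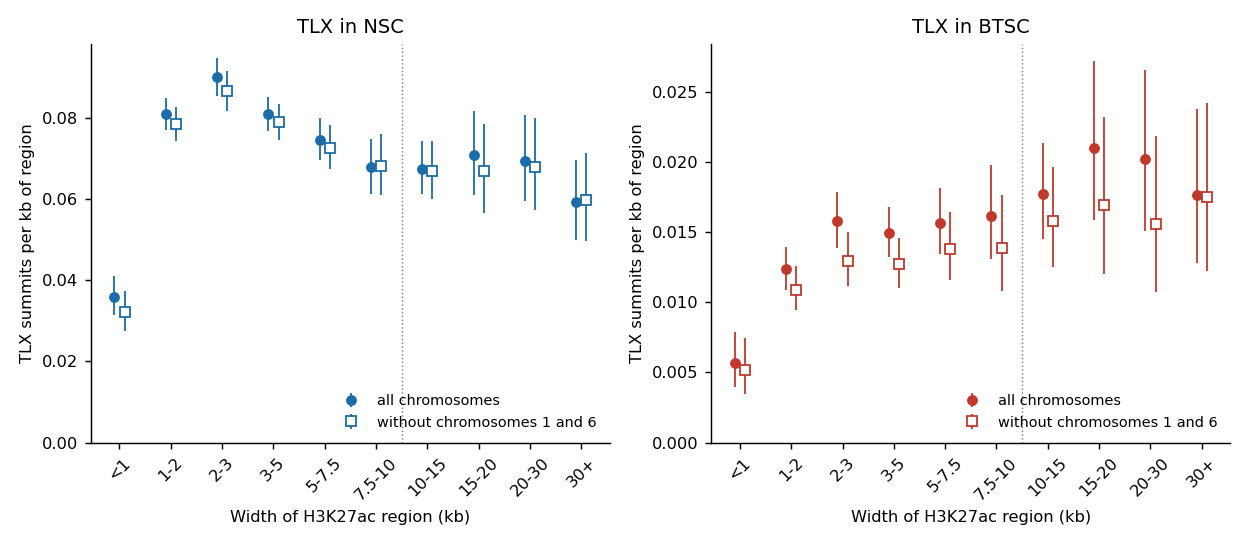
TLX summits per kb of H3K27ac region (y axis) by region width in kb (x axis) in NSC (left) and BTSC (right), with exact 95% Poisson intervals; filled circles are all chromosomes, open squares leave out chromosomes 1 and 6, and the dotted line is the 10 kb limit. NSC density is highest at 2 to 3 kb (0.0899) and is 0.0675 just above the limit, and BTSC density lies between 0.0150 and 0.0210 from 2 kb upward.

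The classes of domain were compared per kilobase acetylated in the same culture, since the class rule itself fixes how much of a domain is covered in each culture. In NSC the density was 0.0827 summits per covered kb (0.0754 to 0.0905) in domains wide in both, 0.0897 (0.0770 to 0.104) in those wide in NSC only and 0.0930 (0.0816 to 0.106) in those wide in BTSC only. In BTSC it was 0.0214 (0.0179 to 0.0254), 0.0221 (0.0145 to 0.0325) and 0.0202 (0.0164 to 0.0247) in the same order. The intervals of the classes overlapped in either list, and a difference between classes was not tested. The BTSC density over the NSC density was 0.259 (0.212 to 0.314), 0.247 (0.157 to 0.374) and 0.218 (0.170 to 0.277), again with overlapping intervals, and 0.172 (0.161 to 0.184) in other regions. Without chromosomes 1 and 6 these ratios were 0.242, 0.243, 0.175 and 0.155. With the lists cut to equal length they were 0.991 (0.770 to 1.28), 0.965 (0.572 to 1.60), 0.912 (0.651 to 1.29) and, in other regions, 1.02 (0.936 to 1.11).

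**Figure D5:**
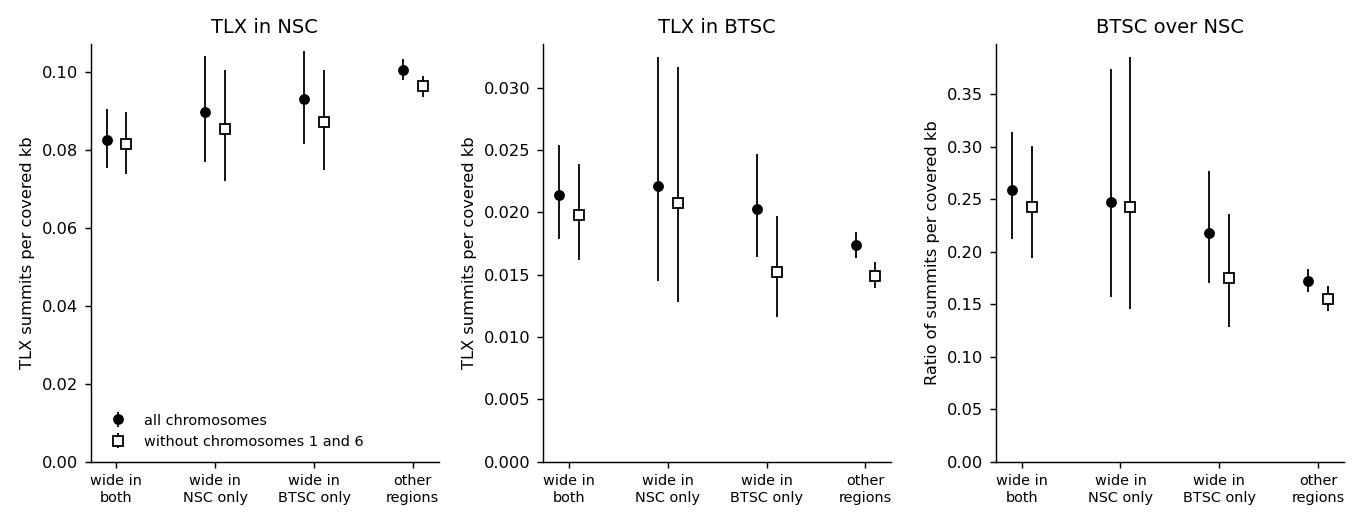
TLX summits per kb acetylated in the same culture in NSC (left) and BTSC (middle), and the ratio of these densities (right), for the classes of domain and the other H3K27ac regions, with exact 95% intervals; filled circles are all chromosomes and open squares leave out chromosomes 1 and 6. The ratio is 0.259, 0.247 and 0.218 in the classes of domain, with overlapping intervals.

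Most TLX summits lay on stretches that were acetylated in both cultures. In domains wide in BTSC only, 95 of 96 BTSC summits (99.0%, interval from 94.3% upward) fell on base pairs that NSC lines covered too, although NSC lines covered 54.2% of those domains. In domains wide in NSC only, 161 of 176 NSC summits (91.5%, 86.3 to 95.2%) fell on base pairs covered in BTSC, where BTSC lines covered 59.8%. In lines outside the domains the shares were 90.3% of BTSC summits on 67.5% of the base pairs and 92.1% of NSC summits on 71.9%. The parts of a domain added in 1 culture held few of that culture's TLX summits, 1 in BTSC and 15 in NSC.

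NSC TLX sites in domains recurred in the other culture more often than those elsewhere. Of the NSC peaks in domains 24.5% (21.7 to 27.4%) overlapped a BTSC peak, against 14.7% (13.8 to 15.6%) of those in other H3K27ac regions, and 22.5% against 13.6% without chromosomes 1 and 6. NSC peaks in domains were also somewhat stronger as the caller scored them, with a median −log10 q of 9.40 against 7.92, and the part of this in the recurrence was not tested. Of the BTSC peaks in domains 86.2% (81.4 to 90.2%) overlapped an NSC peak, against 81.3% (78.8 to 83.6%) elsewhere under H3K27ac, with intervals that overlap and equal median −log10 q of 7.54.

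A smaller share of the TLX summits in domains lay at gene starts, which were also sparser there. Summits within 1 kb of an annotated start made up 15.0% (12.7 to 17.6%) of NSC summits in domains and 35.1% (33.9 to 36.3%) of those in other H3K27ac regions. In BTSC the shares were 9.72% (6.33 to 14.1%) and 26.2% (23.6 to 29.0%). Most summits in domains lay over 10 kb away, 59.7% in NSC and 73.3% in BTSC, beside 55.6% and 65.4% in other H3K27ac regions. Domains held 36.1 promoter windows per Mb (250 bases before to 50 after a start) and other regions 141. Starts were taken from the promoter table, which holds none for chromosome 18.

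Besides the miR-9 loci, the domains with most TLX in NSC were those of Lrig1 (7 summits) and, with 6 each, Zcchc24, Sox2 and Trmt61a, and in BTSC those of Xylt1, Myo10, Bahcc1, Kcnj10 and Marcks, with 3 each as at Mir9-1. Kcnj10, a potassium channel gene of astrocytes on chromosome 1, had 3 summits in either list, and its cover was 20049 bp in NSC and 28074 bp in BTSC. Among the widest domains some held no TLX summit at all: after Rpn2 with Ghrh and Sox10 these were domains in Fchsd2 (25392 and 37813 bp), Fyn, a Src family kinase (29155 and 35017 bp), and Spg7 with Rpl13 (31176 and 35205 bp).

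Promoter windows of 250 bases before to 50 after each start were read from RefSeq and searched on both strands for the TLX hexamer AAGTCA, the only motif searched. The hexamer was in 2799 of all 21263 windows (13.2%), in 33 of the 458 windows in domains (7.21%, 5.01 to 9.97%) and in 10.0% of those in other H3K27ac regions. Windows in domains were richer in G and C than the whole set (median 61.3% against 56.3%), and close to those in other H3K27ac regions (62.0%). A TLX summit of NSC lay in 39 of the 458 windows (8.52%) and one of BTSC in 6 (1.31%), against 7.41% and 1.26% in other H3K27ac regions. Of the 39 windows 6 held the hexamer (15.4%, 5.86 to 30.5%), beside 16.0% of such windows in other regions, and of the 6 windows with a BTSC summit 0 did.

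The windows below, in build GRCm38.p6 and read 5′ to 3′ on the gene's strand, show 1 gene of each class with both a TLX summit and the hexamer, and 1 gene with a summit of both lists and no hexamer. The capitals mark the hexamer, which in these 3 windows reads as TGACTT, its reverse complement.
Fabp7, wide in both (chr10:57784673-57784972, plus strand): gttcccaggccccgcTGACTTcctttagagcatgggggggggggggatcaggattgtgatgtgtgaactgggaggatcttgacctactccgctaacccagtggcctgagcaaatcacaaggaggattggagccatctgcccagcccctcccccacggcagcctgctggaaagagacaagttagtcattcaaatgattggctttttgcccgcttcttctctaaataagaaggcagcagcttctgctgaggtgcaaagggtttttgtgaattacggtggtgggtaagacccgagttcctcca
Creb5, wide in NSC only (chr6:53573124-53573423, plus strand): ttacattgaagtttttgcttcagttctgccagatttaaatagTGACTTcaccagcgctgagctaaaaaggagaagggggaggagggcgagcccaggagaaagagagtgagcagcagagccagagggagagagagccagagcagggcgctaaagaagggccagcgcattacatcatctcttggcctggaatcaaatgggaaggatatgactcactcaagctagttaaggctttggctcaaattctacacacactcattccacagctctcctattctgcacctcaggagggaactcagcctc
Coro2b, wide in BTSC only (chr9:62536995-62537294, minus strand): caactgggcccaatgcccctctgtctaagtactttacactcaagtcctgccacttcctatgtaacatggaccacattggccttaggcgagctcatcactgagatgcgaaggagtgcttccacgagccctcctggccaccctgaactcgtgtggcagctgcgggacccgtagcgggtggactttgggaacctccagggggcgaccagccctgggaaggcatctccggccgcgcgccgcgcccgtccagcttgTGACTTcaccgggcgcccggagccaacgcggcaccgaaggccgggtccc
Jmjd1c, wide in BTSC only (chr10:67126838-67127137, plus strand): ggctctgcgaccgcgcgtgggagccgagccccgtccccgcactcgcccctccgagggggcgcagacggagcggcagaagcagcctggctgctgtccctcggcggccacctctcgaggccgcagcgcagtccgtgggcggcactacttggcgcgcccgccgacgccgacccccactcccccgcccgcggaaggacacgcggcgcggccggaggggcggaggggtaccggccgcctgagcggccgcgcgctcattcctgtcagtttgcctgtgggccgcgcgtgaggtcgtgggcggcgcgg

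The hexamer at Fabp7 lay 235 bases before the start and the NSC summit 35 bases before it, with an authors' fold of 6.50. At Creb5, a CREB family factor whose domain was covered over 16802 bp in NSC and 4261 bp in BTSC, they lay 208 and 32 bases before. At Coro2b the hexamer began 1 base after the start and the summit lay 72 bases before, with a fold of 3.57. At Jmjd1c, a histone demethylase gene with 10629 bp covered in NSC and 17847 bp in BTSC, the summits of both lists lay 55 bases before the start, with folds of 6.73 in NSC and 5.69 in BTSC. The remaining windows with summits of both lists were those of Rab17, Trim9, Pkm and Nedd4, also without the hexamer.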

How the data were processed

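TLX and H3K27ac were profiled by chromatin immunoprecipitation with sequencing in 2 mouse cultures, 1 library a group. The submitters' processing notes name mm10, Bowtie, ChIPseeker and version 2.17.1.14 of bcl2fastq. For the peak caller, its settings and the read depth, nothing is given in the sources used here. The authors called peaks on single libraries and deposited 4 lists, narrow for TLX and broad for H3K27ac. Each deposited line has a score, a fold enrichment (a linear ratio), a −log10 p-value and a −log10 q-value. These are the authors' values, applied here within a list only, to rank or filter its lines or describe them.

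H3K27ac lines of 10000 bp or more (end minus start) were merged across lists by an overlap of at least 1 bp, and coordinates are 1-based. TLX was counted by summit. Genes, starts and sequences came from the RefSeq tables of GRCm38.p6, which give no exons for the domains. Shares have exact Clopper-Pearson intervals, densities exact Poisson intervals and ratios exact conditional binomial intervals, at 95% (Python 3.11.15, NumPy 2.4.6, SciPy 1.17.1, pandas 2.3.3, matplotlib 3.10.9). The counting of cover and summits was checked on simulated data, and the intervals of shares and ratios were not. No test between groups was made.

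Named are the 10 widest domains, the 5 of each single class with the largest difference in cover, the 5 with most TLX in each list and those tied with them, the 5 widest without TLX, the 3 lines on either side of the limit in each list, members of 21 gene lists, and microRNA genes, of which a few are shown. Genes with 4 or more domains and the promoters shown were chosen after their values were seen. A few of these genes are not reported here by name, but all counts include them. The domains and lists were chosen with earlier results of these data known. Alternatives were other width limits, joining of nearby lines, stricter q, TLX lists of equal length, overlap in place of summits, genes by their ends, a reciprocal overlap, and leaving out chromosomes 1 and 6. TLX density per kb acetylated in the same culture, the split by class and the ratio to other regions under these alternatives were added after seeing the data.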

Additional observations from a re-analysis of the deposited data

How the results depend on the processing

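No paired analysis was possible because each group had 1 library. Depth is unknown, so a narrower line in 1 culture means only that less was called there. Of 119 alternative values, 73 stayed within their own spread or within 1.5 times for counts, 44 moved and 2 changed direction. The tally is no measure of stability. Joining within 1000 bp and leaving the shorter TLX list uncut could change nothing, and any change in the cover ratio, which has no interval, counted as moved. With a limit of 7500 bp there were 1467 domains (599 wide in both, 284 in NSC only, 584 in BTSC only) over 1188 genes, a cover ratio of 1.17, and TLX in 58.7% (NSC) and 19.9% (BTSC) of them. With 15000 bp there were 303 (122, 52 and 129) over 308 genes, with 1.19, 77.6% and 37.6%.

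Joining lines over gaps up to the usual stitching distance of super-enhancers gave 5207 domains (2962, 916 and 1329) over 5962 genes, a cover ratio of 1.15, TLX in 46.3% and 12.5%, and 0.0294 and 0.00621 summits per kb. The density ratio to other regions was then 0.341 in NSC and 0.417 in BTSC, the latter with its direction changed; joined domains include the gaps between lines. The BTSC over NSC ratio of densities per covered kb was 0.187 in domains wide in both and 0.152 in those wide in BTSC only. Joining within 1000 bp changed nothing, since no gap was that short.

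Without chromosomes 1 and 6 the cover ratio was 1.15, BTSC density 0.0167 per kb and the BTSC share 22.8%. With H3K27ac lines of −log10 q of at least 5 the cover ratio was 1.21 and the density ratios 0.734 (NSC) and 1.18 (BTSC). With TLX peaks of −log10 q of at least 5, densities were 0.0584 and 0.0161 per kb and shares 62.9% and 22.9%. With equal numbers of TLX peaks, NSC density was 0.0173 per kb and the NSC share 24.0%, the NSC density ratio was 1.29, and the BTSC over NSC ratios per covered kb were 0.991 (wide in both), 0.965 (NSC only) and 0.912 (BTSC only). The cause of the other changes was not tested.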

Other observations

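Of the 787 domains, 105 overlapped no coding gene. Their median distance to the nearest gene end was 48476 bp, 30 lay more than 100 kb away, and 6 held a microRNA gene. Of 12731 long non-coding RNA genes, 248 were overlapped by a domain, beside 724 of 21900 coding genes (3.31%). A further domain, wide in BTSC only, lay on the unplaced scaffold JH584304.1 and was covered over 8317 bp in NSC and 13500 bp in BTSC.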
